A study of Mus musculus with 8 samples.

Results

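Complex I (NADH:ubiquinone oxidoreductase) is the entry point of electrons from NADH into the respiratory chain. Its matrix arm holds the N module, which oxidises NADH, and the Q module, where electrons reach ubiquinone, and its membrane arm pumps protons. Core subunits carry out the catalysis, accessory subunits surround them, and the mt-Nd proteins made inside mitochondria complete the membrane arm, so that each complex depends on nuclear and mitochondrial genes. Heart muscle is among the tissues richest in this complex.

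The genes described here are the nuclear genes of complex I, chosen by symbol alone: protein-coding genes named Nduf followed by a, b, c, s or v and a digit. The rule found 37 genes among 50599 records, of which 21751 code for protein, and it used no measured value. Of these genes, 35 encode subunits of complex I, and the remaining 2, Ndufa4 and Ndufa4l2, carry the name but are known today as a subunit of complex IV and its relative. The symbols Ndufa11b, Ndufb4c and Ndufs6b also matched the letters and were left out as processed pseudogenes.

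Total RNA of whole hearts was sequenced in 4 wildtype and 4 Lrpprc knockout libraries from male C57BL/6N mice aged 12 weeks. LRPPRC is an RNA-binding protein of mitochondria. The knockout animals lost Lrpprc in heart and skeletal muscle only, by Cre recombination of loxP-flanked alleles. Which cells of the heart kept the gene was not tested. The labels call the controls wildtype, and in the Lrpprc footprinting experiments of the study the controls carried the loxP-flanked alleles. The promoter that drove Cre was not given in the sources used here.

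Libraries held 35218541 to 47743376 expected counts, and mitochondrial rRNA took 44.0% to 46.9% of them in wildtype and 65.6% to 67.8% in knockout. Lrpprc itself fell from 3665 ± 216 to 577.0 ± 48.6 normalised counts (SD, n = 4 each), a log2 fold change of -2.67 ± 0.1 (SE, DESeq2, adjusted p = 3.77e-153). The heart muscle identity of the tissue was clear from markers such as Myh6 and Tnnt2, none of which was at 0. Knockout replicate 3 stood apart from the other knockout libraries on the second principal component of all genes, at 68.5 against -27.3 to -22.9, and results are therefore given with and without it.

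Most nuclear complex I genes fell in the knockout heart, by a modest amount. With DESeq2 on expected counts, scaled by median-of-ratios size factors, 24 of the 37 genes fell at an adjusted p under 0.05 and 0 rose (unadjusted p under 0.05 in 30). Over all genes tested, 15.5% were called lower and 18.2% higher. The median log2 fold change of the 37 was -0.36, against 0.02 over all genes, and single values ran from -0.81 for Ndufv3 to 0.24 for Ndufa11. A negative value was found for 35 of the 37. In whole hearts, fewer heart muscle cells and less RNA per cell cannot be told apart.

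A second test gave the same direction. With edgeR, 29 genes were called lower and 0 higher, including all 24 found by DESeq2 and also Ndufa4, Ndufa5, Ndufa7, Ndufa8 and Ndufs5, where 22.4% of all genes tested were called lower. In 25 genes the highest knockout library was still below the lowest wildtype library, which held for 18.7% of all genes averaging at least 10 normalised counts. The groups overlapped in the other 12, and in 0 genes did the knockout libraries lie wholly above.

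The scale on which libraries are compared sets the sign of many of these values. Scaled by the total count, 35 genes were called lower (29.6% of all genes) with a median of -0.67, while all genes shifted to -0.28. Scaled by the total without mitochondrial rRNA, 2 genes were called lower (5.43% of all genes) and 7 higher (38.9% of all genes), with a median of 0.06, while all genes shifted to 0.45. There 14 of the 37 estimates were negative. The 2 genes called lower, Ndufv3 (-0.39) and Ndufs1 (-0.30), were also called lower on the other scales. The distance between the 37 genes and all genes moved little, from -0.38 to -0.39 on either scale. Each direction given here is thus one relative to the bulk of the genes.

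**Figure D1:**
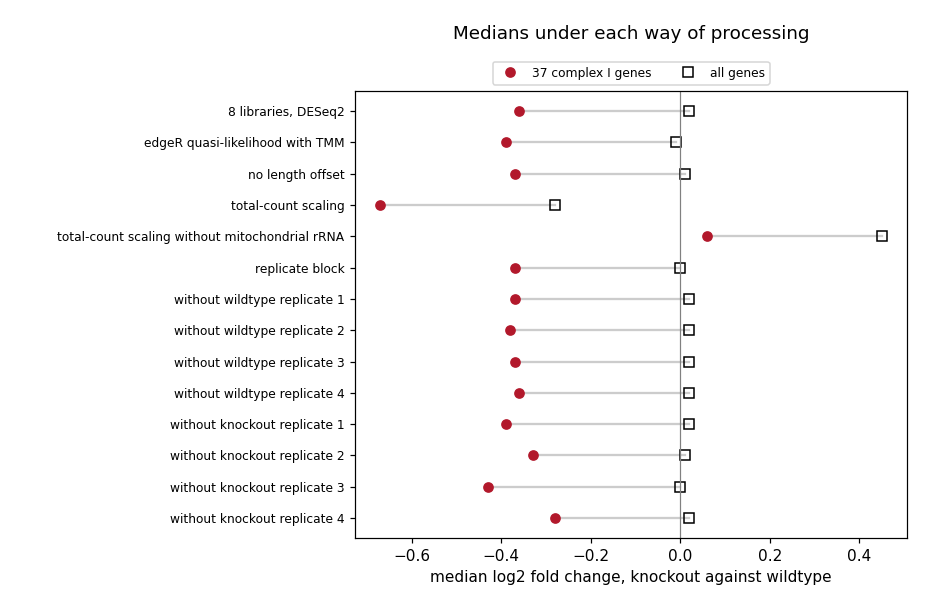
Median log2 fold change (knockout against wildtype) of the 37 nuclear complex I genes (filled circles) and of all genes (open squares) under each way of processing. The circles lie to the left of the squares in every row, by 0.38 in the fit to 8 libraries, while scaling by total counts with or without mitochondrial rRNA moves both together.

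The N module holds the NADH-binding site and the first iron-sulphur clusters, and 7 of its 10 genes fell, with a median log2 fold change of -0.37. Its members spanned a wide range, since Ndufv3, Ndufs1 and Ndufs6 gave the 3 largest falls among all 37 genes, while Ndufa12 and Ndufa6 were near 0.

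Ndufv3 (ENSMUSG00000024038.16, chr17:31520115-31531331, GRCm38) encodes a small accessory subunit bound to the NADH-oxidising tip. Wildtype hearts held 3021, 3036, 3211 and 3272 normalised counts of it and knockout hearts 1905, 1759, 1939 and 1559. The groups lay far apart, and knockout replicate 3 was beside replicate 1. The log2 fold change was -0.81 ± 0.0984 (SE, DESeq2, adjusted p = 6.37e-15), so that its level fell by 42.9%. With edgeR, which was run without length offsets, it was -0.72, beside -0.74 for Ndufs1.

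Ndufs1 (ENSMUSG00000025968.16, chr1:63143596-63176833) encodes the largest subunit, a core protein that carries iron-sulphur clusters. Its normalised counts were 11528, 10882, 10601 and 11191 in wildtype and 7195, 6261, 7245 and 6073 in knockout. Even the highest knockout heart stayed well below the lowest wildtype heart. The change was -0.72 ± 0.0923 on the log2 scale (SE, DESeq2, adjusted p = 1.25e-13).

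Ndufs6 (ENSMUSG00000021606.7, chr13:73319838-73328542), a zinc-binding accessory subunit needed late in the assembly of the N module, was at 2249, 2296, 2345 and 2319 normalised counts in wildtype and at 1648, 1444, 1624 and 1206 in knockout. Wildtype hearts were within a narrow band, and knockout replicate 4 was the lowest of all. The log2 fold change was -0.64 ± 0.117 (SE, DESeq2, adjusted p = 5.77e-07).

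Ndufv1 (ENSMUSG00000037916.13, chr19:4007384-4012806) encodes the core subunit that binds NADH and FMN. It measured 10108, 9943, 8911 and 9550 normalised counts in wildtype and 6621, 6060, 8227 and 5897 in knockout. Knockout replicate 3 came close to the wildtype range without entering it. The log2 fold change of -0.52 ± 0.125 (SE, DESeq2, adjusted p = 0.00019) became -0.64 without that library.

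The other core subunit of this module, Ndufv2 (ENSMUSG00000024099.14, chr17:66078638-66101559), partners Ndufv1. Counts were 5637, 5411, 5613 and 5816 in wildtype and 4360, 4296, 5236 and 3862 in knockout. Again the third knockout replicate was the one nearest to wildtype. The fall was the smallest among core subunits, at -0.34 ± 0.109 (SE, DESeq2, adjusted p = 0.00747).

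Of the remaining N module genes, Ndufs4, whose loss in mice and in people is known to cause Leigh syndrome-like disease, fell with a log2 fold change of -0.40, and Ndufa2 fell with -0.28. Ndufa7 (-0.34), Ndufa12 (-0.06) and Ndufa6 (-0.04) did not pass with DESeq2, while edgeR called Ndufa7 lower (adjusted p = 0.0483). Ndufa2 is among the least firm calls (DESeq2, adjusted p = 0.0399), since it held in 1 of the 8 fits that left out a library, the one without knockout replicate 3.

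The Q module links the N module to the membrane and forms the ubiquinone pocket. Here 5 of 6 genes fell, with a median of -0.44, the lowest of the 4 modules. Among its core subunits are Ndufs7, Ndufs3 and Ndufs8.

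Ndufs7 (ENSMUSG00000020153.14, chr10:80249121-80256794), which lines the pocket and carries the last iron-sulphur cluster, measured 3868, 3684, 4020 and 3838 normalised counts in wildtype and 2928, 2541, 3004 and 2288 in knockout. The groups did not overlap, and replicate 4 was the lowest knockout heart. Its change was -0.52 ± 0.11 on the log2 scale (SE, DESeq2, adjusted p = 2.13e-05).

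Ndufs3 (ENSMUSG00000005510.9, chr2:90894634-90904827), a core protein around which the Q module is first put together, was at 3867, 3793, 3827 and 3814 in wildtype and at 2700, 2539, 3369 and 2249 in knockout. Ndufs8 (ENSMUSG00000059734.6, chr19:3908863-3912774), which passes electrons through iron-sulphur clusters, was at 2089, 2098, 2205 and 2122 in wildtype and at 1818, 1589, 1711 and 1406 in knockout. For Ndufs3 the wildtype hearts were almost identical and the knockout hearts spread widely, with replicate 3 on top. For Ndufs8 it was replicate 1 that lay nearest to wildtype. The log2 fold changes were -0.50 ± 0.13 (SE, DESeq2, adjusted p = 0.000765) for Ndufs3 and -0.38 ± 0.102 (SE, DESeq2, adjusted p = 0.000966) for Ndufs8.

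The accessory subunit Ndufa9, which sits beside the ubiquinone pocket, fell with -0.26 ± 0.0907 (SE, DESeq2, adjusted p = 0.0159), and that call was lost in 5 of the 8 fits without 1 library, those without wildtype replicates 1, 3 or 4 or knockout replicates 2 or 4. Ndufa5 was at -0.26 and did not pass with DESeq2 (adjusted p = 0.108) but did with edgeR (adjusted p = 0.0269), and its groups did not overlap.

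The 7 core subunits all fell, from -0.72 to -0.34 with a median of -0.51. All 7 stayed called with edgeR and in every fit that left out a library. With the total without mitochondrial rRNA as the scale, 1 of the 7 was called lower and 0 higher, where 5.43% of all genes were called lower. Of the 28 accessory subunits 17 fell, with a median of -0.33 and a range from -0.81 to 0.24, and this count ran from 11 without knockout replicate 2 to 24 without knockout replicate 3. No test of core against accessory subunits was made.

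**Figure D2:**
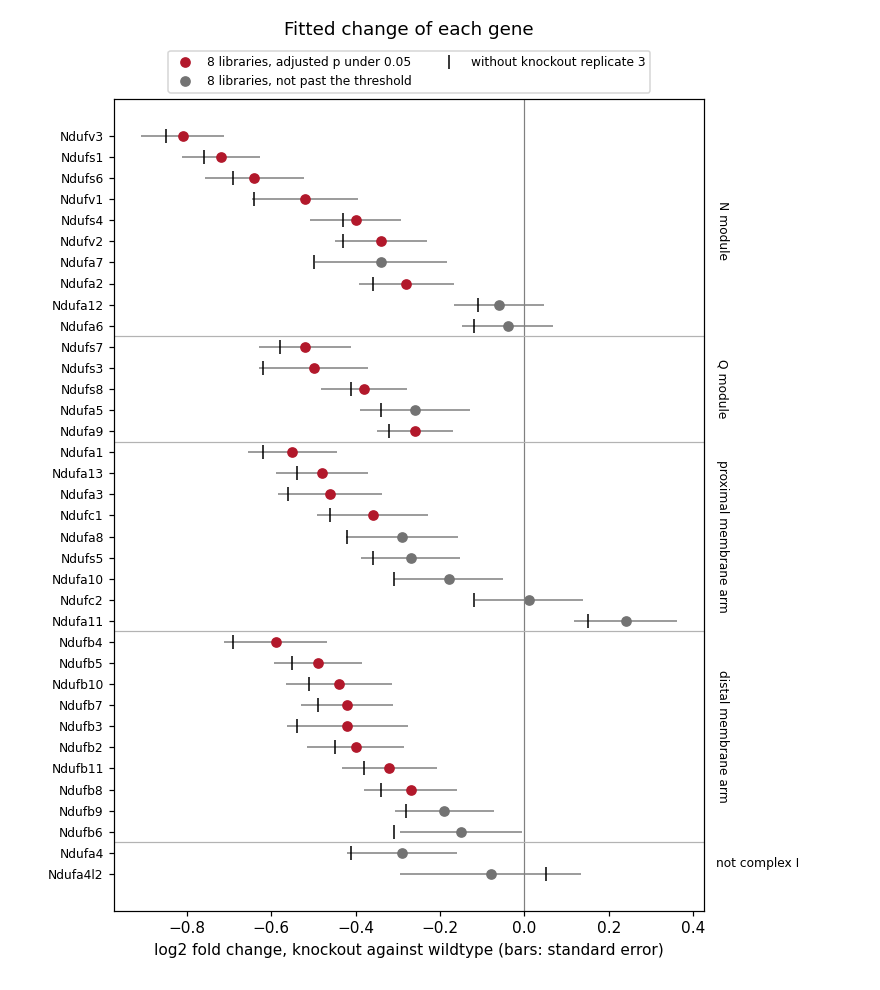
Log2 fold change (x axis, knockout against wildtype) of each nuclear complex I gene, grouped by module, from DESeq2 on 8 libraries with its standard error as a bar, and the value without knockout replicate 3 as a tick. Filled red points passed an adjusted p of 0.05 and lie between -0.81 and -0.26, and without replicate 3 every gene drawn but Ndufa4l2 moves to the left, with 36 of the 37 genes drawn.

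The proximal part of the membrane arm joins the matrix arm to the proton pumps. It was the part with the fewest calls, 4 of 9 genes, with a median of -0.29. The 4 were Ndufa1, Ndufa13, Ndufa3 and Ndufc1. Without knockout replicate 3 the count rose to 7, and without knockout replicate 2 or 4 or without wildtype replicate 1, 3 or 4 it was 3.

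Ndufa1 (ENSMUSG00000016427.7, chrX:37187588-37191163), a small membrane-spanning subunit, measured 1495, 1479, 1576 and 1463 in wildtype and 1035, 1001, 1181 and 901.2 in knockout. The groups were well separated, and its log2 fold change was -0.55 ± 0.106 (SE, DESeq2, adjusted p = 2.69e-06). Ndufa13, also known as GRIM-19, followed at -0.48, Ndufa3 at -0.46 and Ndufc1 at -0.36. The call of Ndufc1 (DESeq2, adjusted p = 0.02) was lost in 5 of the 8 fits without 1 library, those without wildtype replicates 1, 3 or 4 or knockout replicates 2 or 4.

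The genes of the proximal arm that did not pass with DESeq2 were Ndufa8 (-0.29), Ndufs5 (-0.27), Ndufa10 (-0.18), Ndufc2 (0.01) and Ndufa11 (0.24). With edgeR, Ndufa8 (adjusted p = 0.0388) and Ndufs5 (adjusted p = 0.0272) were called lower, which makes 6 of 9. Ndufa11 had the highest estimate of the 37 genes, which became -0.07 under total-count scaling and 0.66 under total counts without mitochondrial rRNA (DESeq2, adjusted p = 1.07e-10). Ndufa11, a membrane-embedded subunit, is given by library although it was picked after its values were seen. It measured 2098, 2175, 2023 and 2142 normalised counts in wildtype and 2608, 2391, 2923 and 2044 in knockout. Of the knockout hearts 3 lay above all wildtype hearts and replicate 4 lay within their range. The log2 fold change of 0.24 ± 0.122 did not pass (SE, DESeq2, adjusted p = 0.119; edgeR, adjusted p = 0.098), but passed in the fit without knockout replicate 4, at 0.33.

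The distal part of the membrane arm is the far end of the proton-pumping arm and is made of the Ndufb proteins beside mt-Nd4 and mt-Nd5. Of its 10 genes 8 fell, with a median of -0.41, and without knockout replicate 3 all 10 fell. The count was lowest, at 5, without knockout replicate 2. Ndufb6 (-0.15) and Ndufb9 (-0.19) were the 2 genes not called. The module counts depend on the scale. With the total without mitochondrial rRNA, 2 genes fell and 2 rose in the N module, and 0 fell and 1 rose in the Q module. In the proximal arm 0 fell and 3 rose, and in the distal arm 0 fell and 1 rose. On that scale 5.43% of all genes were called lower and 38.9% higher.

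Ndufb4 (ENSMUSG00000022820.3, chr16:37647170-37654453) gave the largest value of this group. Wildtype hearts were at 933.1, 930.3, 857.8 and 932.8 and knockout hearts at 564.9, 547.4, 737.4 and 582.1. No knockout heart reached the wildtype range, and the log2 fold change was -0.59 ± 0.123 (SE, DESeq2, adjusted p = 1.56e-05). This gene has a processed copy, Ndufb4c, with 100% identity over 390 bases and 1512.98 expected counts on average in wildtype beside 972.77 for Ndufb4, so reads cannot be assigned between them with certainty. With the copies summed the value was -0.54. Ndufb5 followed at -0.49, Ndufb10 at -0.44, Ndufb7 and Ndufb3 at -0.42, Ndufb2 at -0.40, Ndufb11 at -0.32 and Ndufb8 at -0.27. The calls of Ndufb3, Ndufb11 and Ndufb8 held in 4, 5 and 2 of the 8 fits without 1 library. The libraries whose removal ended them were wildtype replicates 3 and 4 and knockout replicates 2 and 4 for Ndufb3, wildtype replicates 1 and 2 and knockout replicate 2 for Ndufb11, and all but knockout replicates 1 and 3 for Ndufb8.

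Ndufa4 and Ndufa4l2, the pair outside complex I, were not called by DESeq2, while edgeR called Ndufa4 lower (adjusted p = 0.0395). Ndufa4, the most abundant of the 37 per length, was at 7166, 7058, 6806 and 7307 in wildtype and at 5688, 5265, 7304 and 5001 in knockout. Of the 4 knockout hearts, replicate 3 alone fell within the wildtype range. The log2 fold change of -0.29 ± 0.13 (SE, DESeq2, adjusted p = 0.0766) became -0.41 without that library (DESeq2, adjusted p = 5.22e-07). Ndufa4l2, a gene known to be induced in low oxygen, was at 173.2, 142.2, 177.7 and 170.7 in wildtype and at 209.7, 173.6, 111.1 and 133.0 in knockout. Its groups overlapped in both directions, and it differed from the other genes in that knockout replicate 3 was its lowest library.

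The knockout hearts differed among themselves in a way that most of the 37 genes shared. The median log2 ratio of the 37 genes to the wildtype mean was -0.31, -0.44, -0.16 and -0.62 in knockout replicates 1 to 4, while it lay between -0.02 and 0.02 in the wildtype libraries. Knockout replicate 3 was the highest knockout library for 33 of the 37 genes, where 36.1% of all genes had their highest knockout value in it. Knockout replicate 4 was the lowest for 34 of the 37, where it was the lowest for 21.1% of all genes. The high place of replicate 3 was not particular to complex I. It also had the highest knockout sum of normalised counts for nuclear subunits of complexes II and III (94945), IV (88678) and V (228850). The median coefficient of variation of the 37 genes was 2.99% over the wildtype libraries and 13.8% over the knockout libraries, against 11.6% and 19.2% for all genes with a mean of at least 10. The 2 sets were not matched for level. The lowest wildtype mean of the 37 was 166.0 normalised counts, for Ndufa4l2.

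**Figure D3:**
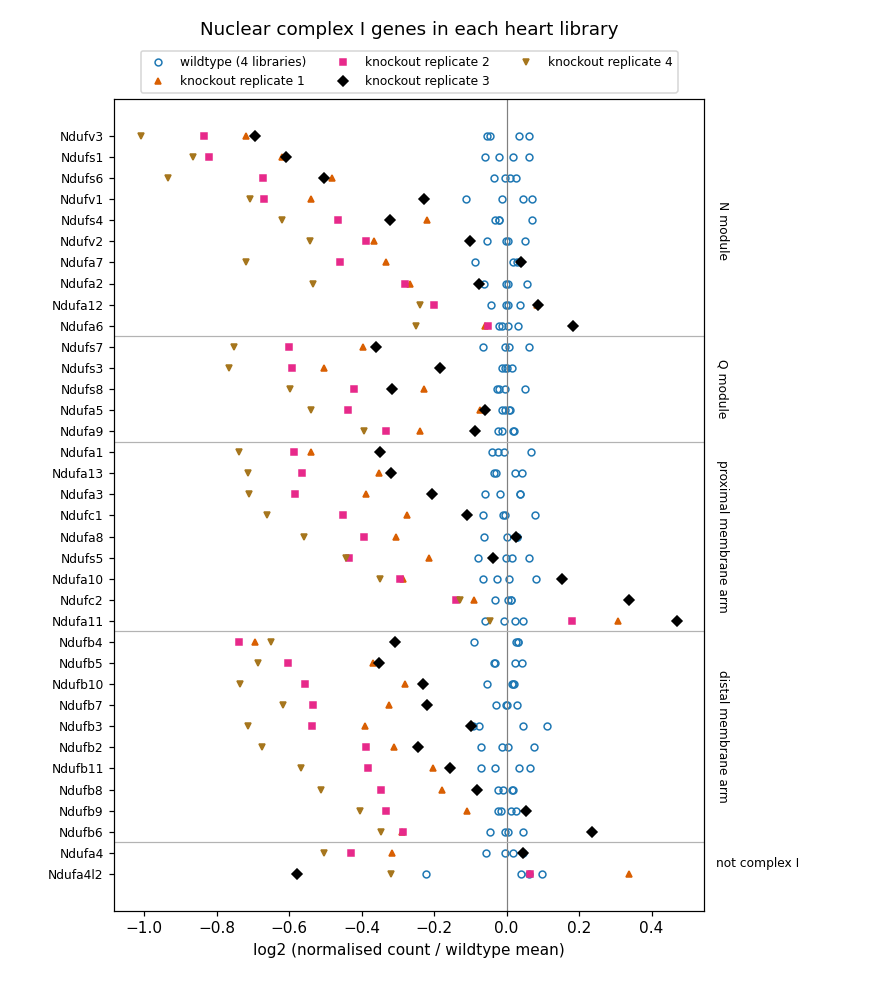
Log2 ratio of the normalised count to the wildtype mean (x axis) for each nuclear complex I gene in each of the 8 libraries, grouped by module. The wildtype circles cluster around 0, and among knockout libraries replicate 4 is mostly the lowest and replicate 3 mostly the highest (36 of the 37 genes drawn).

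Without knockout replicate 3 the number of genes called lower rose from 24 to 32 (17.2% of all genes), including all 24, with a median of -0.43 against 0.00 over all genes. The 8 added were Ndufa4, Ndufa5, Ndufa7, Ndufa8, Ndufa10, Ndufb6, Ndufb9 and Ndufs5, and Ndufa6, Ndufa12, Ndufc2, Ndufa11 and Ndufa4l2 were still not called. Leaving out other libraries gave 18 to 24 genes, with 18 without knockout replicate 2 and 19 without knockout replicate 4, when the median was -0.28. The 18 genes called in the full fit and in all 8 of these fits, and by edgeR, were the 7 core subunits and Ndufv3, Ndufs4, Ndufs6, Ndufa1, Ndufa3, Ndufa13, Ndufb2, Ndufb4, Ndufb5, Ndufb7 and Ndufb10.

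Markers of heart muscle and of other cell types also differed between the groups and among the knockout libraries. Cardiomyocyte markers fell in 8 of 9 genes with a median log2 fold change of -0.87, and their summed normalised count was 2391766 to 2613859 in wildtype and 1397319 to 1783549 in knockout. Replicate 4 had the lowest sum, as it had the lowest complex I values, while replicate 1 had the highest and replicate 3, at 1655109, came next. Fibroblast markers rose in 4 of 7 genes with a median of 1.29, and their sum of 18172 to 18946 in wildtype became 19171 to 64147 in knockout, the lowest of which was knockout replicate 3. Macrophage markers rose in 4 of 7 genes, with a sum of 3721 to 5113 in wildtype and of 3445 to 9279 in knockout, and again replicate 3 was the lowest. Erythroid markers were called in 0 of 5 genes, with sums of 20882 to 27049 in wildtype and 15231 to 53861 in knockout, the highest in replicate 3. Atrial markers fell in 2 of 4 genes, Myl7 (-3.54) and Sln (-2.84), with a median of -1.9 and sums of 9980 to 12038 in wildtype and 1268 to 6012 in knockout, the lowest in replicate 3. Of the endothelial markers 0 of 6 were called, of those of pericytes and smooth muscle 3 of 9 fell, and adipocyte markers, called in 0 of 3, had sums of at most 102.9. The sums of endothelial markers and of those of pericytes and smooth muscle were also lowest in replicate 3, at 10046 and 13827. Among skeletal muscle markers 1 of 4 rose, with sums of at most 37.65. Single libraries moved these counts: 7 macrophage markers rose without knockout replicate 3 and 2 without knockout replicate 2, 4 erythroid markers rose and 2 endothelial and 1 adipocyte markers fell without knockout replicate 1, and 2 endothelial markers rose without knockout replicate 3. With the total without mitochondrial rRNA as the scale, 6 cardiomyocyte markers fell, and 5 fibroblast, 6 macrophage, 3 endothelial and 3 erythroid markers rose. Of the markers of pericytes and smooth muscle 3 fell and 3 rose there, where 5.43% of all genes were called lower and 38.9% higher. The part of cell composition in the values of complex I genes was not tested.

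The level per length was compared in TPM, the authors' measure of transcripts relative to all transcripts and corrected for length, which the authors computed over all transcripts including the mitochondrial rRNA. In wildtype hearts the 37 genes ran from 6.37 TPM for Ndufa4l2 to 495 ± 13.3 TPM for Ndufa4 (SD, n = 4), with a median of 158. After Ndufa4 came Ndufb8 at 365 ± 10.5, Ndufb9 at 350 ± 10.5, Ndufa3 at 291 ± 14.1 and Ndufa5 at 280 ± 7.2 TPM, so that the upper ranks were held by accessory subunits. The values of Ndufb8 and Ndufb9 lay within the sum of their SDs, and so did those of Ndufa3 and Ndufa5.

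The core subunits named here ranked below these genes, but on both sides of the median of 158 TPM. Above it were Ndufv1 at 184 ± 11.9, Ndufs7 at 180 ± 7.28 and Ndufv2 at 174 ± 3.71 TPM (SD, n = 4 each). Below it were Ndufs1 at 128 ± 5.42, Ndufs3 at 123 ± 2.92 and Ndufs8 at 73.7 ± 2.11 TPM (SD, n = 4 each). Ndufa11 at 23.3 ± 0.759 and Ndufs4 at 46.5 ± 2.27 TPM were among the lowest genes of the complex. In the knockout most genes took another rank. Among the larger moves, Ndufv3 went from rank 7 to rank 12 and Ndufs1 from 24 to 30, whereas Ndufa10 went from 20 to 14, Ndufa12 from 11 to 6 and Ndufa6 from 13 to 8.

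Counted as a share of the TPM of nuclear protein-coding genes, the 37 genes made up 3.39%, 3.37%, 3.42% and 3.43% in wildtype and 2.73%, 2.49%, 2.72% and 2.39% in knockout. The shares were 3.4% ± 0.0274 and 2.58% ± 0.17 (SD, n = 4 each) and did not overlap. On the base of all nuclear records, which adds small structural RNAs such as 7SL and pseudogene copies of mitochondrial genes, the groups overlapped: the share was 1.061% to 1.124% in wildtype and 1.053%, 0.99%, 1.142% and 0.968% in knockout. Over the 37 genes the log2 fold change had a Spearman rho of -0.13 against wildtype TPM and of -0.03 against transcript length, given as a description since the points share the same libraries.

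**Figure D4:**
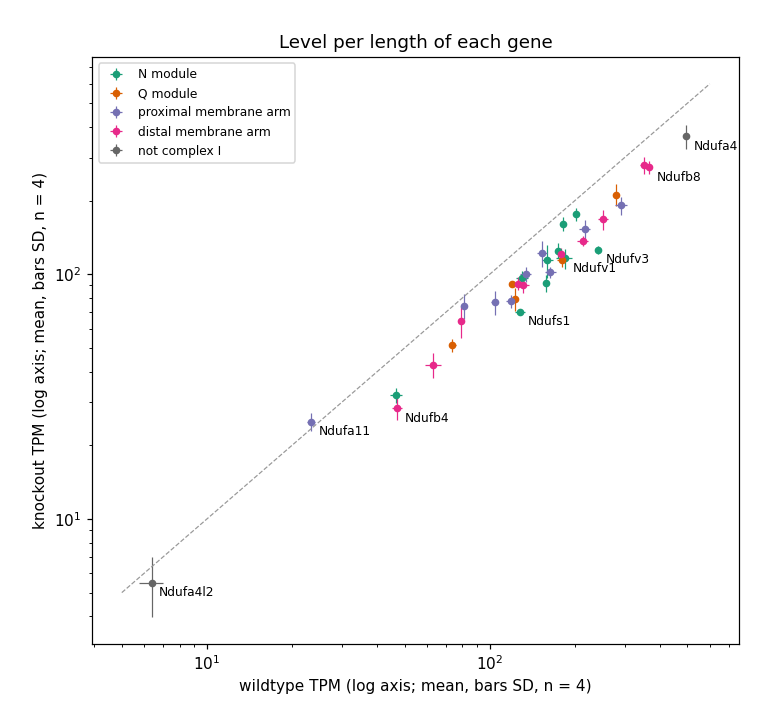
Mean TPM of each nuclear complex I gene in wildtype (x axis) and knockout hearts (y axis), on log axes, with bars for SD (n = 4 each), coloured by module, and a dashed line of equal TPM (36 of the 37 genes drawn). TPM is relative to all transcripts including mitochondrial rRNA, whose share was higher in knockout, so the line is not one of equal normalised counts. Ndufa4 is at the top at 495 TPM in wildtype, most genes lie below the line, and Ndufa11 lies close to it at 23.3 and 25.0 TPM.

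RSEM also estimates the share of each transcript of a gene, and the deposited gene length is the average of transcript lengths weighted by these shares. The length could be compared for 26 of the 37 genes, since the other 11 had 1 transcript or a constant length. None passed an adjusted p of 0.05 in limma (0 of 26, with 2 at an unadjusted p under 0.05), where 0.482% of all genes passed. The smallest p was that of Ndufv3, which is known to have a short and a long form. Its mean length was 512.0, 506.5, 512.0 and 507.4 bases in wildtype and 531.4, 541.4, 537.7 and 533.7 bases in knockout. The groups did not overlap, but the log2 difference of 0.0733 ± 0.012 (SE) had an adjusted p of 0.071 in limma. It passed when the test was restricted to genes averaging at least 100 counts. The other gene with an unadjusted p under 0.05, Ndufa4l2, had a larger difference with a wider spread, from 856.4 ± 33.2 to 916.3 ± 20.7 bases (SD, n = 4 each, limma, adjusted p = 0.283).

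To show what stands at the start sites of these genes, the promoter windows of RefSeq (GRCm38.p6, 250 bases before to 50 after the start) were searched on both strands for short motifs of factors known to act on respiratory chain genes. A window was found for 32 of the 37 genes, 21 of them called lower, while Ndufa2, Ndufa4l2, Ndufb9 and Ndufs1 were among those with none. The letters were GCGCATGC for NRF1, CCGGAAGT for GABPA, AAGATGGC for YY1 and AAGGTCA for half-sites of estrogen-related receptors, and no letters of one motif spell out another. The motifs were picked after the values of the genes were seen.

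The YY1 letters were in the windows of 7 of the 32 genes, 21.9% against 3.19% of all 27025 genes with a window. All 7 were among the 21 of the 32 genes that were called lower in the full fit. The calls of Ndufc1, Ndufb8 and Ndufa9 held in 3, 2 and 3 of the 8 fits without 1 library. In each of the 7 genes the first letter lay 23 to 39 bases after the start on the sense strand. The letters contain ATG, which also starts a reading frame. They are shown here, 5′ to 3′ on the strand of the gene with the motif in capitals, because they line up at one place in genes of all 4 modules.
Ndufs6: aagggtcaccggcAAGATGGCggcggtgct
Ndufs7: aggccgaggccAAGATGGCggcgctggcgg
Ndufa3: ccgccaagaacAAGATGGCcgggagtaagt
Ndufs4: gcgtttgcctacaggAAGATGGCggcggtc
Ndufc1: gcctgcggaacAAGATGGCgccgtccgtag
Ndufb8: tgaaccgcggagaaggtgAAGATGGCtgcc
Ndufa9: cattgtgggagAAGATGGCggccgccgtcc

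These windows lie at chr13:73328433-73328462 on the minus strand for Ndufs6, chr10:80249462-80249491 on the plus strand for Ndufs7, chr7:3617384-3617413 on the plus strand for Ndufa3, chr13:114388045-114388074 on the minus strand for Ndufs4, chr3:51408915-51408944 on the minus strand for Ndufc1, chr19:44555393-44555422 on the minus strand for Ndufb8 and chr6:126849097-126849126 on the minus strand for Ndufa9. The log2 fold changes of the 7 genes ran from -0.64 for Ndufs6 to -0.26 for Ndufa9, a range that genes without the letters covered as well.

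The NRF1 letters were in the windows of 3 genes, 9.38% against 3.05% of all genes with a window. DESeq2 called none of the 3 in the full fit, Ndufa11 (log2 fold change 0.24), Ndufa6 (-0.04) and Ndufa8 (-0.29). Ndufa8 was called lower by edgeR (adjusted p = 0.0388) and without knockout replicate 3 (DESeq2, adjusted p = 1.54e-05), and its value lay below those of Ndufa9 (-0.26) and Ndufb8 (-0.27), whose calls were lost in 5 and 6 of the 8 fits without 1 library. Here the letters lay before the start, at 60, 83 and 8 bases. In Ndufa11 the match on one strand overlaps that on the other, so 10 bases are in capitals. They are shown because they lie on the other side of the start.
Ndufa11: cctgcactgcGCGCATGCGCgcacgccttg
Ndufa6: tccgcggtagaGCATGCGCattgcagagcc
Ndufa8: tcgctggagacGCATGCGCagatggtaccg

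The windows are chr17:56717692-56717721 on the plus strand for Ndufa11, chr15:82354356-82354385 on the minus strand for Ndufa6 and chr2:36049328-36049357 on the minus strand for Ndufa8. The GABPA letters were in the window of 1 gene, Ndufs3 (3.12% against 4.31% of all genes with a window). The half-site letters were in those of 3 genes, Ndufb2, Ndufb4 and Ndufs5 (9.38% against 5.38%). A match of letters is a description and does not show that a factor binds there.

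The factors themselves and their coactivators, which drive respiratory chain genes in heart, were read from the same libraries. Of the 11 regulators listed, 4 fell and 0 rose, with a median of -0.22, and between 2 and 5 fell when a library was left out (2 without wildtype replicate 1 or knockout replicate 2). Scaled by the total without mitochondrial rRNA, 1 fell and 3 rose, where 5.43% of all genes were called lower and 38.9% higher. The coactivators Ppargc1b (PGC-1β), at -1.0 (DESeq2, adjusted p = 2.11e-06), and Ppargc1a (PGC-1α), at -0.63 (DESeq2, adjusted p = 0.00573), gave the largest values, followed by Esrrg, an estrogen-related receptor, at -0.54 (DESeq2, adjusted p = 0.0204). Ppargc1b was at 762.1, 800.0, 548.6 and 606.3 normalised counts in wildtype and at 392.9, 348.2, 380.7 and 239.2 in knockout, with no overlap. Of the factors whose letters were searched, named for that reason after their values were seen, Yy1 was at 0.16 (DESeq2, adjusted p = 0.41) and Nrf1 at -0.09 (DESeq2, adjusted p = 0.781), neither of which passed, and Gabpa fell with -0.29 (DESeq2, adjusted p = 0.0148).

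Assembly factors build complex I but are not part of it. Of the 18 measured, 8 fell and 0 rose, with a median of -0.23. When scaled by the total without mitochondrial rRNA 1 fell and 5 rose, where 5.43% of all genes were called lower and 38.9% higher. The largest values were those of Tmem126b (-0.77; DESeq2, adjusted p = 2.72e-07), a member of the assembly complex of the proximal membrane arm, Ndufaf4 (-0.70; DESeq2, adjusted p = 3.83e-06), which acts on the Q module, and Tmem186 (-0.60; DESeq2, adjusted p = 5.43e-05). Tmem126b was at 461.3, 520.1, 523.8 and 497.5 in wildtype and at 337.6, 326.4, 255.1 and 253.4 in knockout, where replicate 3 was among the lower libraries, unlike in most subunit genes. The count was 4 without wildtype replicate 2 or 4, and without knockout replicate 4, when 1 rose, 5 without wildtype replicate 1 or 3 or knockout replicate 2, and 9 without knockout replicate 1. Ndufab1, a complex I subunit outside the symbol rule and the mitochondrial acyl carrier protein, fell with -0.37 (DESeq2, adjusted p = 0.0242), a call lost in 6 of the 8 fits without 1 library and kept without knockout replicate 1 or 3. Its groups did not overlap, at 2884 to 2993 in wildtype and 1858 to 2797 in knockout.

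The mitochondrial mRNAs of complex I encode the proton-pumping core of the membrane arm. Of their 6 records 5 fell, with a median of -1.60, and the largest values were those of the joint record of mt-Nd4l and mt-Nd4 (-4.72), mt-Nd3 (-4.42) and mt-Nd5 (-1.72). The sum of the 6 was 1042441 to 1078176 normalised counts in wildtype and 257764 to 355300 in knockout. These records are custom sequences of the authors, and knockout replicate 3, at 276231, was within the range of the other knockout hearts.

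The nuclear subunits of the other complexes of oxidative phosphorylation were read in the same fit. Of 13 subunits of complexes II and III 8 fell, with a median of -0.33, and Uqcr11 (-0.79), Sdhc (-0.59) and Sdha (-0.50) gave the largest values. Of 15 subunits of complex V 7 fell, with a median of -0.27, led by Atp5k (-0.77), Atp5e (-0.70) and Atp5j (-0.67). In complex IV 5 of 13 genes fell and 2 rose, with a median of -0.17, and the largest values were Cox7a1 (-1.65), Cox6a1 (1.45) and Cox8a (1.04), all of which belong to subunits with tissue-specific forms. Without knockout replicate 3 the counts of genes that fell were 11, 13 and 9 for complexes II and III, V and IV. They were 5 and 3 without knockout replicate 2 for complexes II and III and IV, and 3 for complex IV without knockout replicate 4 or wildtype replicate 1. The median of complex IV was -0.27 without knockout replicate 3 and -0.09 without knockout replicate 4. Scaled by the total without mitochondrial rRNA, 1 fell and 4 rose in complexes II and III, 3 fell and 6 rose in complex V, and 3 fell and 7 rose in complex IV. On that scale 5.43% of all genes were called lower and 38.9% higher. The difference between complex I and the other complexes was not tested.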

How the data were processed

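Groups were taken from the sample titles, 4 wildtype and 4 knockout libraries. The authors prepared total RNA with random hexamers after depletion of cytoplasmic rRNA, and made the deposited expected counts, TPM and gene lengths with RSEM 1.2.31 and bowtie2, reverse-stranded, on GENCODE M13 with added mitochondrial sequences. The authors' own comparison and a table with 8 columns matching no sample label were not used.

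Expected counts were rounded and fitted with DESeq2 1.42.0 (R 4.3.3) on genotype, with median-of-ratios size factors and effective length offsets, adjusted by Benjamini-Hochberg over all genes with a threshold of 0.05. All 37 genes passed the filter on low counts. Weighted lengths of genes with a mean of at least 10 counts were fitted with limma 3.58.1 on the log2 scale. Copies were sought with blastn 2.17.0 (95% identity over 200 bases). Symbols came from GENCODE M21 and matched 50339 records. Medians over all genes used those averaging at least 10 normalised counts. Depth was 35218541 to 47743376 counts per library. Tests were tested on simulated data.

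Values of 1 of the 37 genes are not reported here by name, and it is counted in the totals. The members, lists and tests were chosen with earlier results of these data known. Values by library are given for the core subunits named, the 5 largest falls, Ndufa4, Ndufa4l2 and, from other lists, genes among the 3 largest changes. They are also given for Ndufa11, which was picked after its values were seen. Alternatives were edgeR 4.0.16, no length offset, a filter of 10 counts in 4 libraries, other scalings, summed copies, a replicate block, and leaving out each library.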

Additional observations from a re-analysis of the deposited data

Results flagged for a closer look

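A single library lay far from the other 3 of its group, by Dixon's criterion, in 11 of 128 groups of 4 libraries, where chance gives 6.4. Knockout replicate 3 was the high library for Ndufa10 (8502 normalised counts against 5998 to 6269), Ndufb6 (1668 against 1114 to 1162) and Ndufc2 (1898 against 1362 to 1409). These are genes that were not called, and without that library Ndufa10 and Ndufb6 were called lower while Ndufc2 was not.

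In wildtype, replicate 3 was low for Ndufa7 (1886 against 2028 to 2055) and for Ndufb4 (857.8 against 930.3 to 933.1), replicate 4 was low for Ndufb10 (4968 against 5214 to 5233), and replicate 1 was high for Ndufs4 (2423 against 2256 to 2275). Lrpprc was lowest in knockout replicate 2, at 504.3 against 597.4 to 605.4.

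Among weighted transcript lengths, Ndufb4 was long in knockout replicate 3 (781.4 bases against 692.7 to 698.0), Ndufb7 was long in wildtype replicate 1 (637.3 against 635.2 to 635.6) and Ndufv2 was short in knockout replicate 2 (1047 against 1065 to 1068).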

How the results depend on the processing

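Scaling moved these results most, and it moved all genes too. Under total counts without mitochondrial rRNA, 5.43% of all genes were called lower and 38.9% higher. Under total-count scaling the median of the 37 genes was -0.67, 14 assembly factors were called, and Ndufa11 (-0.07) and Ndufc2 (-0.30) turned negative. Under total counts without mitochondrial rRNA the median was 0.06, 2 genes were called lower and 7 higher, 6 assembly factors were called (1 lower, 5 higher), and 21 estimates turned positive: Ndufa10 0.24, Ndufa12 0.36, Ndufa2 0.14, Ndufa4 0.13, Ndufa4l2 0.35, Ndufa5 0.16, Ndufa6 0.38, Ndufa7 0.07, Ndufa8 0.12, Ndufa9 0.16, Ndufb11 0.10, Ndufb2 0.02, Ndufb6 0.26, Ndufb7 0.00, Ndufb8 0.15, Ndufb9 0.23, Ndufc1 0.06, Ndufs4 0.02, Ndufs5 0.14, Ndufs8 0.04 and Ndufv2 0.08. Ndufa4l2 was positive with edgeR (0.01), with no length offset (0.03) and without knockout replicate 3 (0.05), with values from -0.26 to 0.05 over the fits without 1 library. Ndufc2 was negative without knockout replicate 3 (-0.12) and without wildtype replicate 2 (-0.00), and Ndufa6 was positive without knockout replicate 4 (0.03).

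Leaving out 1 library gave 18 to 32 genes called lower, 0 to 1 called higher, medians of -0.43 to -0.28 and 4 to 9 assembly factors called lower. With no length offset 26 genes were called lower, with the count filter 25, and with nuclear size factors or summed copies 24. The length test restricted to a mean of at least 100 counts called 1 gene, Ndufv3. Same-numbered libraries did not deviate together (r from -0.074 to 0.072), so the numbers were not taken as pairs, and with a replicate block 22 genes and 4 assembly factors were called lower and Ndufc2 was at -0.01. The log2 fold change of Lrpprc kept its direction and call under every alternative. The causes of these shifts were not tested. Groups of 4 limit the precision of single genes near the threshold.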
